A study of Homo sapiens with 4 samples.

Results

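FTH1 and FTL encode the heavy and the light chain of ferritin, and BEST1 encodes bestrophin-1. These 3 genes, of 58051 in the total RNA gene tables, were followed in RNA of PC3 extracellular vesicles (EVs). They were matched by Ensembl gene identifier and were selected on their read counts in these 2 libraries and on the exons of BEST1 lying opposite those of FTH1 on the other DNA strand. Their counts are therefore a description and carry no test.

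Ferritin is a hollow protein shell of heavy and light chains that stores iron inside cells. The heavy chain carries the ferroxidase centre that oxidises iron on entry, and the light chain favours the formation of the mineral core. Translation of both mRNAs is held back at low iron by the iron regulatory proteins, which bind a hairpin called the iron-responsive element (IRE) near the 5′ end of each mRNA. Bestrophin-1 is a calcium-activated chloride channel best known from the retinal pigment epithelium, the pigmented cell layer behind the photoreceptors.

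The EVs came from PC3, a line established from a prostate cancer metastasis to bone. The paper reports collection in medium with exosome-free serum, and isolation with the exoEasy Maxi kit and gravity flow columns. Total RNA of the EVs was sequenced as 2 stranded libraries, described as biological replicates of the same untreated condition, and the authors deposited the number of reads counted on each gene. The 2 small RNA libraries of the series hold mature miRNAs and were not used here, and neither PC3 cellular RNA nor EVs of another source were analysed here. A gene's share of such a library cannot tell more vesicles with the RNA apart from more RNA per vesicle.

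The gene counts amounted to 489170 reads in replicate 1 and 475942 in replicate 2, which were 2.50% and 2.16% of the reads each file accounts for. Reads that fitted several places took 45.5% and 48.1%, and reads over no annotated feature 36.3% and 35.4%. Counts are given scaled to 1000000 gene counts per library (CPM), so that 1 read equals 2.04 and 2.10 CPM, and 3 reads, the smallest level taken as shown, equal 6.13 and 6.30 CPM. The replicates differed beyond counting noise, with a chi-square of 13.2 per degree of freedom over 7581 genes. The marker lists for the check of the source were chosen with earlier results of these data known. Of the epithelial markers, 6 of 8 had a read in both libraries, led by KRT8 with 966 and 1088 reads. KRT8 has exons opposite those of KRT18 over 525 bases, so its counts may depend on the strand setting of the counting. KRT19, with no exon opposite, had 36 and 78 reads. Of 8 prostate luminal markers only HOXB13 was read, with 15 and 6 reads, and none of 9 red cell and serum markers was. Across all 19629 protein-coding genes, 21.9% had a read in both libraries and the median level was 0 CPM.

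The IREs of the ferritin mRNAs are shown because they lie at the end of FTH1 that BEST1 does not cover. On GRCh38 the FTH1 element is at chr11:61967573-61967602 on the minus strand, in exon 1, within the 5′ untranslated region. The FTL element is at chr19:48965335-48965364 on the plus strand, also within the 5′ untranslated region. Capitals mark the loop of 6 bases, and the 5 bases on either side pair to form the upper stem.
FTH1 IRE: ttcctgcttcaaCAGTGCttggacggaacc
FTL IRE: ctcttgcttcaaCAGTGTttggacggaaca
The windows had 26 of 30 bases in common. A search of the 113 bases of 5′ untranslated region of BEST1-201, the reference transcript of BEST1, for a CAGTGN loop closed by 5 paired bases found none.

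FTH1 (ENSG00000167996) lies on chromosome 11 from 61959718 to 61967634 on the minus strand and has 2004 bases of annotated exon, of which 1267 are opposite exons of BEST1. In its reference transcript FTH1-201, 880 of 1203 bases (73.2%) are opposite BEST1. The 323 bases of exon 1 have no BEST1 exon opposite, whereas exons 2, 3 and 4, with 147, 126 and 607 bases, lie wholly within BEST1 exons. BEST1 (ENSG00000167995) lies on chromosome 11 from 61950063 to 61965515 on the plus strand and has 8688 bases of exon, of which 7421 are its own. The overlap depends on the BEST1 transcript, because the last exon of BEST1-202, with 3261 bases, spans exons 2 to 4 of FTH1, while the reference transcript BEST1-201 meets FTH1-201 over only 177 bases. FTL (ENSG00000087086) lies on chromosome 19 from 48965309 to 48966879 on the plus strand. It has 871 bases of exon and no exon of another gene opposite. FTL therefore gives a ferritin gene of comparable make-up without the overlap.

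**Figure D1:**
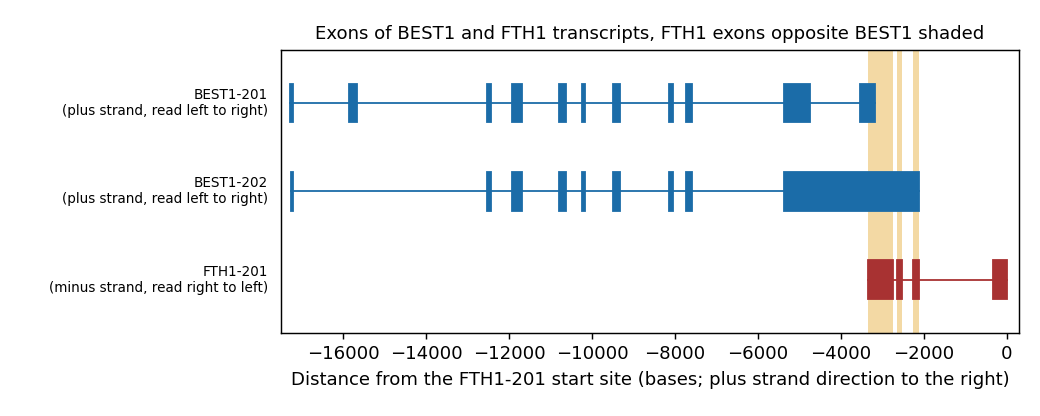
Exons (boxes) and introns (lines) of BEST1-201 and BEST1-202 (plus strand, blue) and FTH1-201 (minus strand, red), plotted as distance in bases from the FTH1-201 start site. Shading marks the 880 bases of FTH1-201 exon that lie opposite BEST1 exons, which leave exon 1 at the right free and fall within the last exon of BEST1-202.

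BEST1 was counted at 10716 reads in replicate 1 and 11414 in replicate 2. These were 21906 and 23982 CPM, a mean of 22944 CPM ± 1468 (SD, n = 2). Its share of all gene counts was 2.19% (95% Wilson interval 2.15 to 2.23%) in replicate 1 and 2.40% (2.36 to 2.44%) in replicate 2. The libraries lay close together, with a coefficient of variation of 6.40%, although their intervals did not overlap. Such intervals cover counting error only, since PCR copies of a molecule are counted as separate reads. BEST1 was the protein-coding gene with the third highest count in both libraries. RPS29, a protein of the small ribosomal subunit, and the mitochondrial MT-ND5, a subunit of respiratory complex I, stood above it, and MT-ND4 and MT-ND6 of the same complex stood below. The gaps to these 4 genes in counts, not corrected for length, ranged from 5151 CPM for MT-ND4 to 73799 CPM for RPS29, and all exceeded the SD of BEST1.

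FTH1 was counted at 1050 reads in replicate 1 and 707 in replicate 2. These were 2146 and 1485 CPM, a mean of 1816 CPM ± 467 (SD, n = 2). Its share was 0.215% (0.202 to 0.228%) in replicate 1 and 0.149% (0.138 to 0.160%) in replicate 2. FTH1 was thus lower in replicate 2, at 0.692 times its level in replicate 1, whereas BEST1 was higher there, at 1.09 times. FTH1 ranked 22 among protein-coding genes by mean CPM, at rank 20 in replicate 1 and 24 in replicate 2. The genes nearest in rank, which is by count and not by length, were PLEC, a cytoskeletal linker, and YBX1, an RNA-binding protein, above it, and HMGA1, a chromatin protein, and ENO3, the muscle enolase, below it. None of these 4 differed from FTH1 by more than its SD, the gaps ranging from 211 CPM for YBX1 to 372 CPM for ENO3.

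FTL was counted at 40 reads in replicate 1 and 65 in replicate 2. These were 81.8 and 137 CPM, a mean of 109 CPM ± 38.7 (SD, n = 2). Its share was 0.00818% (0.00601 to 0.0111%) in replicate 1 and 0.0137% (0.0107 to 0.0174%) in replicate 2, and these intervals overlapped. FTL moved in the direction opposite to FTH1, being 1.67 times as high in replicate 2 as in replicate 1. It ranked 580 among protein-coding genes, at 985 and 470 in the single libraries. RABL6, E4F1, CHD4 and PHYKPL, the nearest in rank, all lay within 0.312 CPM of it, so that the order among them was not resolved.

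**Figure D2:**
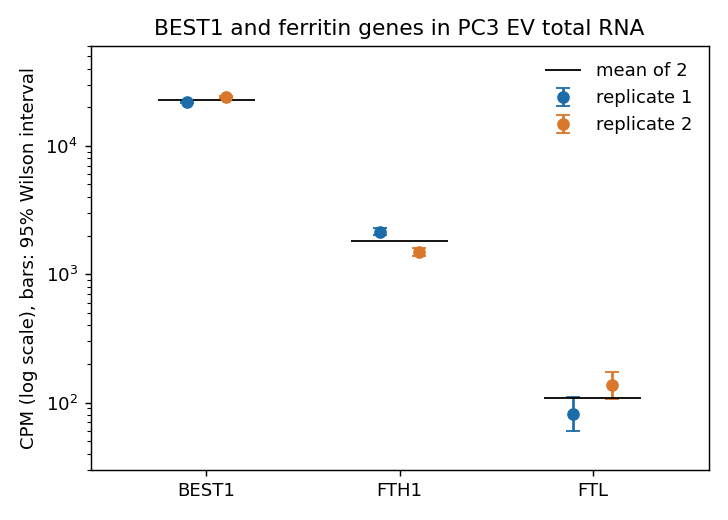
Level of BEST1, FTH1 and FTL in the 2 total RNA libraries, in CPM on a log axis. Points are single libraries with 95% Wilson intervals and lines are the means of 2 libraries; BEST1 lay near 22944 CPM, FTH1 near 1816 CPM and FTL near 109 CPM, with no overlap between the genes.

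The transcripts differ in length, so levels of different genes were compared per kilobase. Per kilobase of all annotated exon, BEST1 stood at 2521 and 2760 CPM, FTH1 at 1071 and 741 CPM, and FTL at 93.9 and 157 CPM. The order BEST1, FTH1, FTL held in both libraries on this scale. Per kilobase of the longest transcript the means were 3975 CPM ± 254 for BEST1, 1510 CPM ± 389 for FTH1 and 125 CPM ± 44.5 for FTL (SD, n = 2), again in this order in both libraries. When only the exon bases with no opposite exon were taken as the length, FTH1 stood at 2912 and 2016 CPM per kilobase and BEST1 at 2952 and 3232 CPM per kilobase. On that scale the means of 2464 ± 634 for FTH1 and 3092 ± 198 for BEST1 (SD, n = 2) differed by less than the SD of FTH1. If instead every BEST1 read came from the shared 1267 bases, BEST1 would stand at 17290 and 18928 CPM per kilobase. Counts per gene do not say where along the gene a read fell, so which length applies was not tested.

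The pair was read together because the overlap bears on the strand setting of the counting. Of the reads counted on either FTH1 or BEST1, BEST1 received 91.1% (90.5 to 91.6%) in replicate 1 and 94.2% (93.7 to 94.6%) in replicate 2. The mean share was 92.6% ± 2.19 (SD, n = 2), which is 10.2 reads on BEST1 for each read on FTH1 in replicate 1 and 16.1 in replicate 2. The uneven split was thus present in both libraries and differed between them by more than counting error.

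In a stranded library, HTSeq in its default mode gives a uniquely placed read of FTH1 mRNA a different fate under each of its strand settings. With the setting that matches the library, such a read is counted on FTH1 along the whole mRNA. With the opposite setting, a read from exons 2 to 4 is counted on BEST1 and a read from exon 1 falls on no feature. Without strand, a read from exons 2 to 4 is set aside as ambiguous and a read from exon 1 is still counted on FTH1. The setting used is not given in the sources used here. Reads set aside as ambiguous numbered 118736 and 150525 over all genes, and the pair's own counts would amount to 9.91% and 8.05% of them. RNA of BEST1 itself, FTH1 mRNA counted on the other strand and RNA transcribed antisense to FTH1 cannot be told apart in counts per gene.

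The gene without an overlap was set beside FTH1. FTL, with no gene opposite, stood at 6.04% ± 3.36 (SD, n = 2) of the counts on both ferritin chains, with 3.67% (2.71 to 4.96%) in replicate 1 and 8.42% (6.66 to 10.6%) in replicate 2. By count and not per length, FTL was thus a small part of the reads counted on both ferritin genes in both libraries. With the opposite strand setting, reads of FTL mRNA would fall on no feature. Whether the reads on FTL measure light chain mRNA was therefore not tested. The other 3 bestrophins, BEST2, BEST3 and BEST4, had no read in either library, which allows up to 6.13 and 6.30 CPM. BEST1 was thus 1 of 4 bestrophins with reads, a share near the 21.9% of all protein-coding genes, and the family median of 0 CPM was that of protein-coding genes at large.

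Among the 13 markers of the retinal pigment epithelium, 2 had a read in both libraries (15.4%) and the median was 0 CPM. RPE65, the isomerase of the visual cycle, had 34 and 35 reads, and PMEL, the fibril protein of pigment granules, had 5 and 6. LRAT was read in replicate 1 alone with 6 reads and MITF in replicate 2 alone with 3. RLBP1, RGR, TYR and TTR were at 0 in both libraries. Summed over the 13 markers there were 45 and 44 reads, beside 10716 and 11414 on BEST1. A further list held 12 genes of calcium-activated or volume-regulated chloride channels and of related proteins. Of these, TTYH3 alone was read in both libraries, with 12 and 2 reads, while LRRC8A had 0 and 18 and ANO6 0 and 10. With 21.9% of all protein-coding genes read in both libraries and a median of 0 CPM over them, low levels in these lists were not particular to them.

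Copies of the ferritin genes can take or lose their reads. The tables list 41 ferritin pseudogenes, 25 of FTH1 and 16 of FTL, and their counts summed to 27 reads in replicate 1 and 29 in replicate 2. The FTH1 copies held 25 and 29 reads, which is 2.38% and 4.10% of the FTH1 counts. FTH1P2 had 16 and 8 reads, FTH1P8 had 5 and 10, FTH1P10 had 0 and 8, FTH1P12 had 1 and 2, and FTH1P16 had 2 and 0. The FTL copies held 2 and 0 reads, all on FTLP3. Few ferritin reads were thus counted on the copies, but reads that fit several places were set aside and are not in these counts.

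How much could be set aside was read from the genome sequence. Of the 50-base stretches of FTH1-201 that lie opposite BEST1, 51.0% had a unique place in GRCh38, and 66.4% of the 75-base stretches did. For exon 1 of FTH1-201 these were 49.3% and 84.7%. For FTL-201 they were 63.1% and 92.9%. For the part of BEST1 that is not opposite FTH1 they were 89.3% and 97.1%. A smaller part of both ferritin genes than of BEST1 alone had a unique place, and counts of FTH1 and FTL are uncertain to that extent.

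The split of BEST1 and FTH1 was set beside those of other genes that face each other. There were 345 pairs of protein-coding genes with at least 100 bases of exon opposite each other and at least 100 counts. Of these, 35.1% had at least 90% of their counts on 1 gene, and the median share of the higher gene was 82.8%. With 92.6% on BEST1, the pair of BEST1 and FTH1 was among those 121 pairs, and 87 pairs were more uneven. It had the second most counts of all 345 pairs, while an uneven split by itself was common. A gene that faces several others enters several pairs, as SLC52A2 does with TMEM249 and SCRT1, neither of which was read. The pairs are therefore not separate observations.

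The 4 other pairs with the most counts were uneven too. RPS29 had 54213 and 39341 reads and LRR1, a leucine-rich repeat protein facing it over 404 bases, had 41 and 0. MFSD11 had 1419 and 1368 reads, while SRSF2, a splicing factor facing it over 823 bases, had 96 and 122. ATG10, an autophagy enzyme, had 1246 and 1170 reads, while RPS23, a ribosomal protein gene facing it over 374 bases, had 103 and 52. KRT8 had 966 and 1088 reads and KRT18, its keratin partner facing it over 525 bases, had 94 and 87. Cellular RNA was not analysed here, so which gene of each pair is the higher in PC3 cells was not tested.

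**Figure D3:**
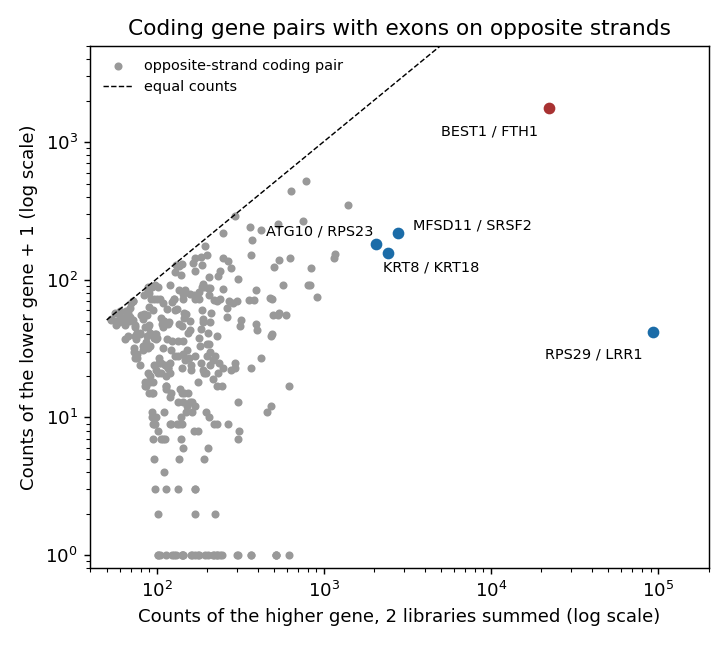
Counts of the higher and of the lower gene in 345 pairs of protein-coding genes with exons on opposite strands, summed over 2 libraries, on log axes with 1 added to the lower gene. The red point is BEST1 and FTH1, the blue points are the other 4 pairs with the most counts, and the dashed line marks equal counts; the lower gene of the red point, FTH1, had more counts than the lower gene of any other pair.

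FTH1 was also set beside 24 mRNAs known to be abundant in most human cells. Per kilobase of annotated exon, all 24 were below the mean of FTH1, 906 CPM, the highest being TMSB10, which binds actin monomers, at 860 CPM and YBX1 at 597 CPM. Their median was 46.0 CPM per kilobase, and 7 of the 24 were above the mean of FTL, 125 CPM per kilobase. This length merges the exons of all annotated transcripts and can exceed that of any mRNA of the gene. For FTL it equals the longest transcript, 871 bases. Other lengths were not taken for the 24, so whether the order holds with them was not tested. The gap between FTH1 and TMSB10 was less than the SD of FTH1, 233 CPM per kilobase, and their order changed between the libraries. In replicate 1 TMSB10 stood at 1104 CPM per kilobase against 1071 for FTH1, and in replicate 2 at 615 against 741. By count and not per length, 23 of the 24 were below FTH1 and YBX1 was above it. On that scale 18 of the 24 were above FTL, so the place of FTL among them depended on the correction for length. Of the 24, 11 had an opposite gene in the table, and in 6 of the 11 that opposite gene had the higher count. Over all protein-coding genes with an opposite gene and at least 10 counts on both together, the opposite gene was higher for 57.0%. That share can hold both genes of a coding pair, and the list had no minimum of counts. The sets are thus unlike, and whether the list differs from genes at large was not tested.

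Among the 6, GAPDH, a glycolytic enzyme, had 512 and 372 reads while ENSG00000269968, facing it over 422 bases, had 3763 and 3809. TPT1, the translationally controlled tumour protein, had 140 and 188 reads while ENSG00000273149, facing it over 588 bases, had 2318 and 2500. The excess of the opposite gene in mean CPM was 8.58-fold for GAPDH and 14.7-fold for TPT1. CFL1 and PFN1, which bind actin, were lower than SNX32 and ENO3 by 7.00-fold and 4.01-fold. The remaining 2 were ALDOA, another glycolytic enzyme, and TMSB10, which faces TRABD2A over 9 bases and was the higher of the pair in replicate 1, with 249 reads against 219. Against these, ACTG1, EEF1A1 and ENO1 were higher than the genes opposite them in both libraries. MYL6 was higher than SMARCC2 in mean CPM, but the order changed between libraries, with 79 and 23 reads against 50 and 37. TUBB and its opposite gene had no read. The 13 mRNAs with no opposite gene in the table ranged from 3.38 to 597 CPM per kilobase of exon with a median of 38.5 CPM per kilobase. Per kilobase 3 of them were above FTL, and by count 9 were.

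The other genes of iron handling were read about as often as genes at large. Of 49 iron genes, FTH1 and FTL included, 15 had a read in both libraries (30.6%), 13 more had a read in 1 library, and the median was 4.20 CPM. Without FTH1 and FTL, 13 of 47 were read in both (27.7%), beside 21.9% and a median of 0 CPM over all protein-coding genes, and none of the 47 exceeded 73.5 CPM. Their counts summed to 237 and 358 reads, fewer than FTH1 alone in either library. The remaining ferritin genes, FTMT of mitochondria and FTHL17 of the germ line, had no read.

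Iron uptake was represented by 3 of 12 genes. TFRC, the transferrin receptor, had 14 and 26 reads, its liver homologue TFR2 had 3 and 31, and the metal transporter SLC39A14 had 10 and 4. No gene of 6 for iron export was read in both libraries. SLC40A1, the iron exporter ferroportin, was at 0, and CP, the ferroxidase ceruloplasmin, had 0 and 6 reads. The median of either group was 0 CPM. At these counts only TFRC among the uptake genes had at least 10 reads in both libraries.

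Of 7 genes for the control and turnover of ferritin, 3 were read in both libraries (42.9%), beside 21.9% of all protein-coding genes. The median was 18.6 CPM. PCBP1 and PCBP2, the chaperones that deliver iron to ferritin, had 40 and 31 and 24 and 13 reads. Both lie opposite another gene with more reads. PCBP1 faces PCBP1-AS1 over 1264 bases, on which 357 and 332 reads were counted. PCBP2 faces MAP3K12 over 1494 bases, on which 70 and 30 reads were counted. HERC2, a ubiquitin ligase, had 12 and 6 reads. FBXL5, which targets the iron regulatory proteins for degradation, had 0 and 37 reads. IREB2 and ACO1, which encode the iron regulatory proteins themselves, had 0 and 9 and 0 and 6. NCOA4, the receptor that carries ferritin to lysosomes, had none. The genes that encode the proteins binding the IREs shown above were thus read in replicate 2 alone, with few reads.

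Of 10 genes whose mRNAs carry an IRE, 6 were read in both libraries (60.0%), beside 21.9% of all protein-coding genes. Among the 6 are FTH1 and FTL, which were selected on their counts. The median of the 10 was 20.3 CPM. EPAS1, a hypoxia-inducible transcription factor, had 2 and 18 reads, and CDC42BPA, a kinase of the cytoskeleton, had 11 and 8. Of 13 genes of haem synthesis and breakdown, 5 were read in both libraries (38.5%) and the median was 6.25 CPM. FLVCR1, a haem exporter, had 10 and 46 reads, PPOX had 9 and 45, and UROD had 32 and 6, the latter both enzymes of haem synthesis. PPOX faces B4GALT3, with 6 and 0 reads, and UROD faces HECTD3, with 15 and 6. Of 8 mitochondrial iron genes, 2 were read in both, ABCB8 with 14 and 33 reads and SLC25A37, the iron importer mitoferrin-1, with 14 and 11, and the median was 6.19 CPM. These counts stood beside 1050 and 707 reads on FTH1.

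**Figure D4:**
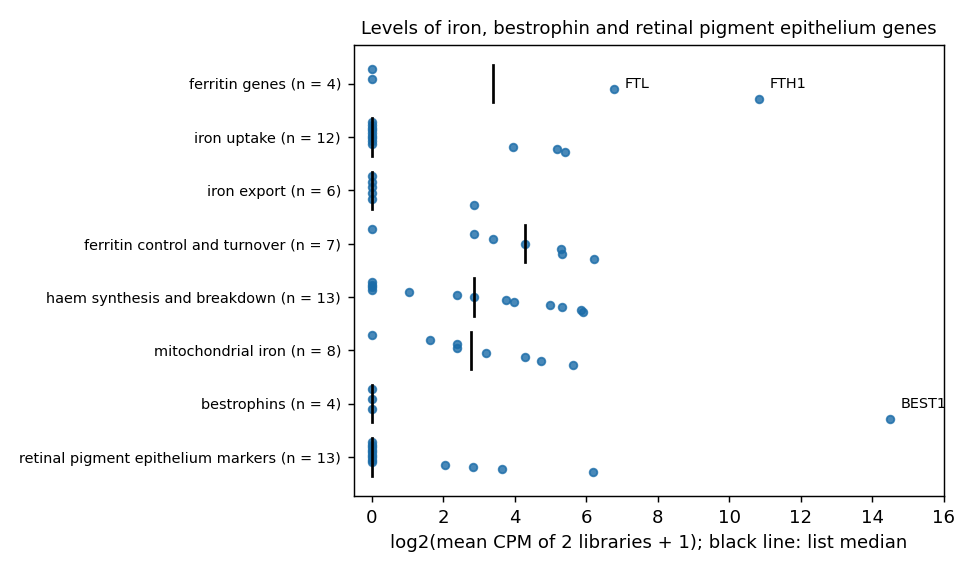
Level of each gene in lists of iron, bestrophin and retinal pigment epithelium genes, as log2 of the mean CPM of 2 libraries plus 1. Points are genes and black lines are list medians; FTH1, FTL and BEST1 are labelled, and no other gene shown exceeded 73.5 CPM.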

How the data were processed

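RNA of PC3 EVs was profiled in 2 total RNA libraries prepared with a stranded kit. The authors deposited raw read counts per Ensembl gene without normalisation, with the reads set aside in 5 further classes. The submitters' processing notes name HTSeq and GRCh38. Versions, strand setting and annotation release are not given in the sources used here. The table of mature miRNAs was not used here.

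Files were assigned to replicates through the sample descriptions. The titles of both total RNA samples read PC3_EX1, while the description of replicate 2 names a file marked EX2, so SDs over the 2 libraries may not reflect separate EV preparations. Counts were divided by the library's gene counts, 489170 and 475942. The classes of reads set aside stayed out of these totals. A gene was called read with at least 1 read in both libraries. Shares carry 95% Wilson intervals, which with the limit of 3 counts cover counting error only. Gene models came from GENCODE release 44 on GRCh38. Of the identifiers 56948 matched it and 1103 did not. Exon overlap was measured between opposite strands on merged exons. Unique stretches were found with minimap2 2.31 at a mapping quality of at least 10. IREs were read from the GRCh38 sequence.

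The members and the 14 gene lists were chosen with earlier results of these data known. Named are the 3 genes, those opposite them, the 2 nearest protein-coding genes in rank on each side, the 3 highest of each list, genes behind counts of 5 or fewer, 5 pseudogenes and the 5 pairs with the most counts; further genes of the lists were named after their values were seen. A gene on 1 of the lists that the rule covers is not reported here. A single condition allows no test. The assignment of reads by strand was tested on simulated data only, which cannot show the strand setting behind the counts used here. Alternatives were other totals and lengths, scaling by edgeR 4.0.16 (TMM) and DESeq2 1.42.0 in R 4.3.3, other minimums and leaving out each library. Python 3.11.15, pandas 2.3.3, numpy 2.4.6, scipy 1.17.1 and matplotlib 3.10.9 were used.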

Additional observations from a re-analysis of the deposited data

How the results depend on the processing

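Levels of FTH1, FTL and BEST1 under TMM or DESeq2 scaling stayed within 1 SD. Scaled to 1000000 protein-coding counts they were 3072, 186 and 38948. Scaled to 1000000 reads in the file they were 42.9, 2.50 and 533. Per kilobase, FTH1 moved to 2464 CPM with its own exon bases and 1510 CPM with its longest transcript, and BEST1 to 3092 and 3975 CPM. Leaving out 1 library gave 1485 to 2146 CPM for FTH1, 81.8 to 137 CPM for FTL, 21906 to 23982 CPM for BEST1, 91.1 to 94.2% for the BEST1 share and 3.67 to 8.42% for the FTL share. The pairs compared numbered 146 at 500 bases of overlap, 1271 at 1 count, 11 at 1000 counts and 160 to 163 without 1 library. Iron genes numbered 8 with 10 reads in both libraries, 28 with a read in either and 17 to 26 in single libraries. Retinal pigment epithelium markers numbered 1 with 10 reads in both and 4 with a read in either. Abundant mRNAs below an opposite gene numbered 3 with protein-coding partners only. No paired analysis was possible because a single condition was sequenced in each assay, so no groups share replicate numbers. Depth limits the lists, in which most genes had fewer than 10 reads in at least 1 library.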

Other observations

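Another gene of iron metabolism, not on the lists and chosen after its values were seen, stood far above the ferritin genes in counts. GLRX5, a mitochondrial glutaredoxin of iron-sulfur cluster assembly, had 3144 and 3910 reads, a mean of 7321 CPM ± 1264 (SD, n = 2), and ranked 9 among protein-coding genes. Genes facing its exons were lower, with 0 and 10 reads on SNHG10, over 301 bases, and 144 and 174 on SCARNA13, over 127 bases. These counts are not corrected for length. Because the strand setting is not known, whether the reads came from GLRX5 mRNA or from the other strand was not tested.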
